A study of Homo sapiens with 3 samples.

Results

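MicroRNA genes and genes of other small RNAs were examined among the DNA sites bound by wild-type MECOM. The members are the peaks whose assigned gene symbol starts with MIR and a digit or MIRLET, SNORA, SNORD, SCARNA, RNU, RNA5S, RN7S or RNY, leaving out host genes, whose symbols end in HG. They number 45 of the 3462 peaks in the list. Of these, 35 peaks belong to 34 microRNA genes and 10 peaks belong to 10 genes of other small RNAs. No SCARNA, RNA5S or MIRLET symbol was assigned a peak.

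Chromatin immunoprecipitation with sequencing was carried out in HEK293T, a human embryonic kidney cell line, with an antibody to the AM tag. Cells were transfected with MECOM-WT carrying the AM tag, MECOM-R750W carrying the AM tag, or the pMYS-IG vector, with 1 library in each group. MECOM, also called EVI1, is a zinc finger transcription factor known from myeloid leukaemia and blood stem cells, and here it was expressed from a construct in kidney-derived cells. The list used is taken as that of the wild-type library because it carries that genotype name, and lists of R750W and vector cells were not analysed here. Every value is therefore from 1 library with no replicate, and no difference between groups was tested.

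MicroRNAs are cut from hairpin transcripts and pair through their seed, bases 2 to 8, with messenger RNAs, which are then repressed. Many lie in introns of a host gene and are transcribed from that gene's promoter, which can be far from the hairpin, and neighbouring hairpins can share 1 transcript. Small nuclear RNAs are the RNA parts of the spliceosome, small nucleolar RNAs guide the processing and modification of ribosomal RNA, the RN7SL RNA is the core of the signal recognition particle, and Y RNAs bind the RO60 protein. RNA polymerase III makes U6, RN7SL and Y RNAs, whereas most other small nuclear RNAs are made by RNA polymerase II, and many of these genes exist in near-identical copies.

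The mature sequences below belong to the microRNAs on which the results turn: those with the highest peaks, those with a peak at the gene, and those in families or clusters. They come from RefSeq (GRCh38.p14), which held a mature form for 31 of the 34 microRNA genes, with 43 mature forms and 40 different seeds. Capitals mark the seed.
miR-4497: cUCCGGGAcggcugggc
miR-548q: gCUGGUGCaaaaguaauggcgg
miR-4522: uGACUCUGccuguaggccggu
miR-3665: aGCAGGUGcggggcggcg
miR-4665-5p: cUGGGGGAcgcgugagcgcgagc
miR-4475: cAAGGGACcaagcauucauuau
miR-148a-3p: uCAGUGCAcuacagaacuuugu
miR-152-3p: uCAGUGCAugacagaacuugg
miR-125b-5p: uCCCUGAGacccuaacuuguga
miR-125a-5p: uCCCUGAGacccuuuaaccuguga
miR-99b-5p: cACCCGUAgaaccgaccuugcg
miR-99a-5p: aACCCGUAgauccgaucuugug
let-7e-5p: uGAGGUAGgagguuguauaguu
let-7c-5p: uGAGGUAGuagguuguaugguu
miR-365a-3p: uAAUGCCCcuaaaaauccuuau
miR-6724-5p: cUGGGCCCgcggcgggcgugggg
miR-5008-3p: cCUGUGCUcccagggccucgc
miR-6737-3p: uCUGUGCUucaccccuacccag

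MIR148A and MIR152, each assigned a peak, share the seed CAGUGCA, and the peaks of MIR125B2 and MIR99B lie at paralogous clusters. Between those clusters the seed CCCUGAG is shared by the miR-125 members, the seed ACCCGUA by the miR-99 members and the seed GAGGUAG by the let-7 members. MIR6724-2 and MIR6724-4 are copies with the same mature sequence. MIR5008 and MIR6737 share the seed CUGUGCU in their 3p forms only. MIR125A, MIR99A, MIRLET7E and MIRLET7C are cluster neighbours and were not themselves assigned a peak.

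For 4 peaks, the RefSeq promoter window that the peak overlaps is printed next, from 250 bases before to 50 after the gene's start. The WSB1 and GHET1 windows hold or adjoin the small RNA gene, and in the SLAIN1 and ERCC1 windows a searched motif lies within the stretch that the peak covers. Capitals mark the MIR4522 hairpin in the WSB1 window, GATGAG in the SLAIN1 window and CGGAAG in the ERCC1 window. The GHET1 window has no capitals because none of the motifs searched was in it; its first base lies 29 bases from RNY1, on that gene's upstream side.
WSB1, chr17:27293864-27294163, plus strand, peak of MIR4522: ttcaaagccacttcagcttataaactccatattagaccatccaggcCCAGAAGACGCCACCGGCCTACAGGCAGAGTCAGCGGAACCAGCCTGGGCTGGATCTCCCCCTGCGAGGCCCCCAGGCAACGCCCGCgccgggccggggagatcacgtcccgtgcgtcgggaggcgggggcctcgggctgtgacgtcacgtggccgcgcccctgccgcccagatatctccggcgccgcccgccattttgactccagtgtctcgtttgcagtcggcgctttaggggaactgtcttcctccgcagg
SLAIN1, chr13:77698631-77698930, plus strand, peak of MIR3665: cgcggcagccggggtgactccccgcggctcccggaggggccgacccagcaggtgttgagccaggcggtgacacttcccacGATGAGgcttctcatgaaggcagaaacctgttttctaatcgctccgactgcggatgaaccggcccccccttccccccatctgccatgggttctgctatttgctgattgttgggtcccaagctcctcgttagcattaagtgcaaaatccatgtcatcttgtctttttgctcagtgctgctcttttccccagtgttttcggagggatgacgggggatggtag
ERCC1, chr19:45423868-45424167, minus strand, peak of MIR6088: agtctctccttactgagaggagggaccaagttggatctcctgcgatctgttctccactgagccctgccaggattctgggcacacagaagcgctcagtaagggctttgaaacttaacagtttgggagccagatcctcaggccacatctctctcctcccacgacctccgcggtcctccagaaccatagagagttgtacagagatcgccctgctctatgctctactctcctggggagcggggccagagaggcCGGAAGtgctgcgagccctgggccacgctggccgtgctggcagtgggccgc
GHET1, chr7:148987277-148987576, plus strand, peak of RNY1: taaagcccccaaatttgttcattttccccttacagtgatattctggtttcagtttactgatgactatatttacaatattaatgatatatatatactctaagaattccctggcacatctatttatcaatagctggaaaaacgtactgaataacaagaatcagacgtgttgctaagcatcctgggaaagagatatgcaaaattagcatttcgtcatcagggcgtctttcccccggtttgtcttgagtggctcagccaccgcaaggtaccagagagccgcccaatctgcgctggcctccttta

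Height is given as the authors' fold enrichment, which equals the fragments at the top of a peak plus 1, divided by the background expected there plus 1. The added 1 makes a fold lower than the plain ratio of the fragments and background printed beside it, most of all where the background is low. Each fold carries a 95% Poisson interval for the fragments, with the background held fixed, which covers counting error only. MicroRNA peaks had a median fold of 4.75, with a range of 1.70 to 8.68, against a median of 4.82 over all peaks. Peaks of other small RNA genes had a median of 4.28 and a range of 2.21 to 7.05. The median fragment number was 19 at microRNA peaks and 21.5 at the others, against 18 over all peaks. The expected background had a median of 2.61 fragments at microRNA peaks and 3.69 at the others, against 2.92 over all peaks.

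No member reached a fold of 10 (0 of 45, with an interval up to 7.87%). Of the 3419 peaks with an assigned gene, 26 did (0.76%), so none among the members is close to that share. The interval of 29 of the 35 microRNA peaks and of 7 of the 10 others included the median of all peaks (82.9% and 70%), against 90.0% of all peaks. MIR4497 and MIR548Q lay wholly above that median, 5.71% of the microRNA peaks against 5.29% of all peaks. MIR99B, MIR1302-3, MIR6724-4 and MIR6724-2 lay wholly below it among microRNAs, as did SNORA24B, RNU6-1 and RNU2-1 among the others. These make 4 of 35 (11.4%, 3.20 to 26.7%) and 3 of 10 (30%, 6.67 to 65.2%), against 4.62% of all peaks. By the authors' deposited table, 18 microRNA peaks (51.4%) and 5 of the others (50%) had a q-value of at most 1e-05, against 54.8% of all peaks.

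**Figure D1:**
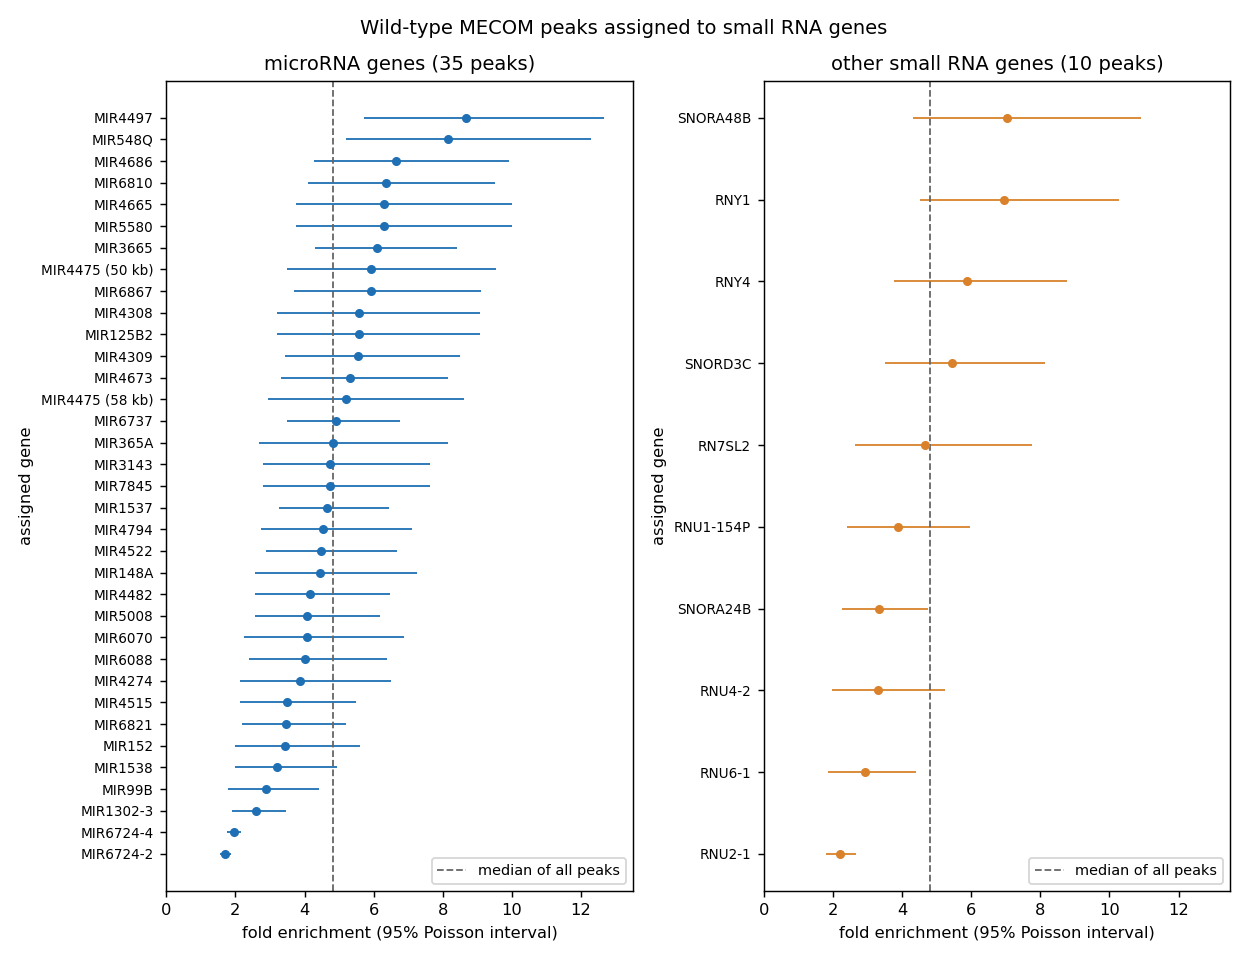
Fold enrichment (x axis) of each peak by assigned gene (y axis), for 35 microRNA peaks on the left and 10 peaks of other small RNA genes on the right, with bars for 95% Poisson intervals of the fragments and a dashed line at the median of all peaks, 4.82. MIR4497 at 8.68 and SNORA48B at 7.05 are highest in their panels, MIR6724-2 at 1.70 and RNU2-1 at 2.21 are lowest, and most bars cross the line.

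The highest microRNA peak, at chr12:109813551-109813951, was assigned to MIR4497. It held 25 fragments against 2.0 expected, a fold of 8.68 (5.73 to 12.7), and ranked 65 among the 3462 peaks. It lies inside TRPV4, which encodes a calcium-permeable channel, and 19797 bp upstream of MIR4497. The peak of MIR548Q, at chr10:12750633-12751338, held 21 fragments against 1.70, a fold of 8.16 (5.19 to 12.3). MIR548Q belongs to a large primate microRNA family, and both it and its peak, 25280 bp upstream, lie inside CAMK1D, which encodes a calcium-dependent kinase. Both of the highest peaks are therefore far from the hairpin that names them.

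The next peaks in height lay at distances from 164 to 23257 bp from their microRNA. The peak of MIR4686 had a fold of 6.65 (4.28 to 9.92) and lies 23257 bp downstream of its start. Its nearest protein-coding gene is TH, which encodes the enzyme that limits catecholamine synthesis, 24505 bp away. The peak of MIR6810, with a fold of 6.37 (4.10 to 9.50), lies 18214 bp upstream of the microRNA and 518 bp from a start of PNKD, the gene that holds both. MIR5580 and MIR4665 had peaks of equal height, each with 16 fragments against 1.70 and a fold of 6.30 (3.76 to 10.0). The MIR5580 peak lies 3011 bp upstream of the hairpin and inside BMP4, which encodes a secreted morphogen. The MIR4665 peak lies 845 bp upstream of its microRNA start and 861 bp from the start of BRD10. The MIR3665 peak came next, with a fold of 6.09, and lies 164 bp upstream of its microRNA.

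MIR4475 was the microRNA with more than 1 peak. Its peaks, at chr9:36773316-36773583 and chr9:36765483-36766015, had folds of 5.93 (3.48 to 9.55) and 5.19 (2.94 to 8.62), from 15 and 13 fragments against 1.70. They lie 50283 and 58116 bp downstream of the microRNA start. The nearest protein-coding gene is PAX5, a B cell transcription factor, 59686 and 67254 bp away. The intervals of the pair overlap. The MIR6867 peak followed in height, with a fold of 5.93 (3.69 to 9.10), inside RAPGEFL1 and 2098 bp upstream of the microRNA; MIR4308 and MIR125B2 tied for the last place among the 10 highest with a fold of 5.56 (3.21 to 9.08). The MIR4308 peak lies inside GCH1, which encodes the first enzyme of tetrahydrobiopterin synthesis, 7787 bp downstream of the microRNA start.

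At 1 microRNA the peak covered the gene itself. The MIR4522 peak at chr17:27293895-27294937 spans the whole hairpin, which lies at chr17:27293910-27293996 on the minus strand inside the promoter window of WSB1, a ubiquitin ligase subunit gene on the plus strand. It held 22 fragments against 4.15, a fold of 4.47 (2.87 to 6.66), within counting error of the median of all peaks. Because the hairpin lies in the WSB1 promoter window, a peak here cannot be told apart from a peak at the WSB1 start.

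The other peaks within 1000 bp of a microRNA start lay just upstream of it. The MIR3665 peak, also among the 10 highest, held 35 fragments against 4.91, a fold of 6.09 (4.29 to 8.40), beside the hairpin. It covers the SLAIN1 window printed above; SLAIN1 encodes a microtubule-associated protein and holds MIR3665. MIR1538, with a fold of 3.21 (2.0 to 4.93), had its peak 294 bp upstream. That peak lies inside NFAT5, 196 bp from an end of this gene, which encodes a transcription factor of the response to osmotic stress. MIR6821, with a fold of 3.45 (2.20 to 5.19), had its peak 693 bp upstream, inside the kinase gene PIM3. MIR1302-3, with a fold of 2.59 (1.89 to 3.46), had its peak 548 bp upstream, 20 bp from a start of LOC124907875. With the peaks of MIR4522 and MIR4665, these make 6 of 35 (17.1%, exact 95% interval 6.56 to 33.7%) within 1000 bp of the assigned start, against 55.7% of all peaks with an assigned gene.

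MicroRNA peaks lay farther from their assigned gene than peaks of the list at large, which is a description without a test. The median distance to the assigned gene's start was 8536 bp for microRNA peaks and 1592 bp for the other small RNAs, against 797 bp for all peaks. Within 10000 bp lay 19 of the microRNA peaks (54.3%), against 81.0% of all peaks. The share that overlapped the assigned gene was 2.86% for microRNA peaks, against 60.7% for all peaks. A peak was upstream of its microRNA in 24 cases (68.6%) and downstream in 10 (28.6%), against 27.8% and 11.4% over all peaks. Peaks that overlap their gene count as neither, so these shares depend on the share that overlaps. Over all peaks the counts were 952 upstream and 390 downstream, so upstream outnumbered downstream in both sets. The median RefSeq microRNA gene is 80 bp long, against 24130 bp for the median protein-coding gene, so a peak has little room to overlap a microRNA.

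**Figure D2:**
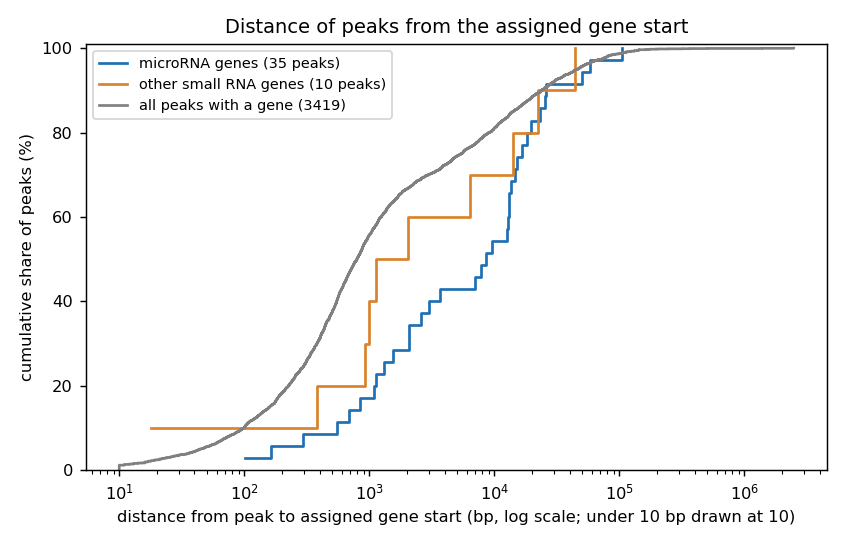
Cumulative share of peaks (y axis, %) by distance from the peak to the start of the assigned gene (x axis, bp, log scale) for microRNA genes, other small RNA genes and all peaks with a gene. The microRNA curve lies to the right of the curve of all peaks, with medians of 8536 and 797 bp, and the curve of other small RNAs lies between them for most of its length.

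The microRNA peaks were spread over 17 chromosomes and mostly lay within other genes. Of the 35, 22 (62.9%, 44.9 to 78.5%) were inside or overlapped a protein-coding gene, against 68.8% of all peaks. Fewer lay at the ends of such genes: 6 (17.1%) were within 1000 bp of an end of a protein-coding gene, against 55% of all peaks. A peak assigned to a protein-coding gene cannot be a member, so this share and the next follow in part from the choice of members. A RefSeq promoter window was overlapped by 7 (20.0%), against 33.9% of all peaks. RefSeq placed the microRNA and its peak inside the same protein-coding or long noncoding RNA gene for 21 of the 35 peaks.

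For 8 of those 21, the peak lay within 1000 bp of an annotated start of the shared gene. Besides SLAIN1, BRD10, PNKD and LOC124907875, these genes were SLC39A1, KLF7, LYST and ERCC1. Strand was not used in this count. SLAIN1, KLF7 and ERCC1 lie on the strand opposite to MIR3665, MIR7845 and MIR6088. In each of these pairs the microRNA lies upstream of the gene start at the peak, outside what is transcribed from that start. SLC39A1 and LOC124907875 lie on the same strand as MIR6737 and MIR1302-3. Strands were not compared for BRD10, PNKD and LYST. The MIR6737 peak held 36 fragments against 6.52, a fold of 4.92 (3.49 to 6.76), and lies 200 bp from a start of SLC39A1, which encodes a zinc transporter. The MIR1537 peak held 34 fragments against 6.52, a fold of 4.65 (3.26 to 6.45), at 226 bp from a start of LYST, a lysosome trafficking gene, and 13036 bp from the microRNA. The MIR7845 peak, with a fold of 4.75 (2.79 to 7.63), lies 39 bp from a start of KLF7, a zinc finger factor gene. The MIR6088 peak, with a fold of 4.02 (2.40 to 6.39), covers the printed promoter window of ERCC1, a DNA repair gene, 12850 bp upstream of the microRNA.

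Elsewhere the peak lay deep inside the shared gene or outside it. The peak of MIR4673, with a fold of 5.31 (3.30 to 8.15), lies inside the receptor gene NOTCH1, 17303 bp from its nearest start and 8536 bp from the microRNA. MIR4482 had a peak of 4.17-fold (2.56 to 6.46) at the start of GSTO1, which encodes a glutathione transferase, 13724 bp from the microRNA. The peak of MIR4515, with a fold of 3.50 (2.12 to 5.48), lies 255 bp from a start of BTBD1, and the microRNA is 338 bp from the peak. The most distant assignment was that of MIR4274, 105627 bp away, with a fold of 3.86 (2.14 to 6.51) inside the sorting receptor gene SORCS2. The remaining peaks were of middle height. MIR4309 had a fold of 5.54 (3.45 to 8.49), 14647 bp upstream of the microRNA and outside protein-coding genes. That peak lies in the long noncoding RNA gene LOC105370680, 177 bp from a start of it. MIR4794 had a fold of 4.54 (2.75 to 7.12) inside CACHD1. MIR5008 had a fold of 4.08 (2.57 to 6.19), 26057 bp downstream and 2628 bp from its host WNT9A, a signalling ligand gene. MIR6070 had a fold of 4.07 (2.25 to 6.87) inside HSF2BP.

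Peaks were also assigned to MIR125B2 and MIR99B, of the conserved let-7, miR-99 and miR-125 clusters, at 1688 and 3291 bp from those genes. These clusters exist in several copies, and MIR125B2 is known for raising leukaemia in mice when overexpressed. The MIR125B2 peak at chr21:16588174-16588549 held 14 fragments against 1.70, a fold of 5.56 (3.21 to 9.08), and lies 2063 bp upstream of the start. It lies within MIR99AHG, the host transcript that also holds MIR99A and MIRLET7C, which are 49005 and 48263 bp from the peak. The MIR99B peak at chr19:51688947-51689321 held 19 fragments against 5.93, a fold of 2.89 (1.80 to 4.43), below the median of all peaks. It lies 3665 bp upstream of MIR99B, inside SPACA6, the gene that holds both, and MIRLET7E and MIR125A follow at 3465 and 3933 bp from the peak. The intervals of these 2 folds overlap between 3.21 and 4.43.

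MIR148A and MIR152, which share a seed and are known to repress the DNA methyltransferase DNMT1, had peaks of 4.45-fold (2.57 to 7.26) and 3.43-fold (1.98 to 5.59), each from 14 fragments, against 2.37 and 3.38 expected. The MIR148A peak lies 2571 bp upstream of the start, with the nearest protein-coding gene, NFE2L3, 199351 bp away. The MIR152 peak lies 13209 bp downstream of the microRNA start and outside its host gene COPZ2, whose end is 1588 bp away. MIR365A, of a cluster known in mouse brown fat, had a peak of 4.82-fold (2.67 to 8.14) from 12 fragments, the lowest number among the microRNA peaks and equal to those of MIR6070 and MIR4274. It lies in the host transcript MIR193BHG, 16658 bp beyond MIR365A and 21980 bp beyond MIR193B.

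**Figure D3:**
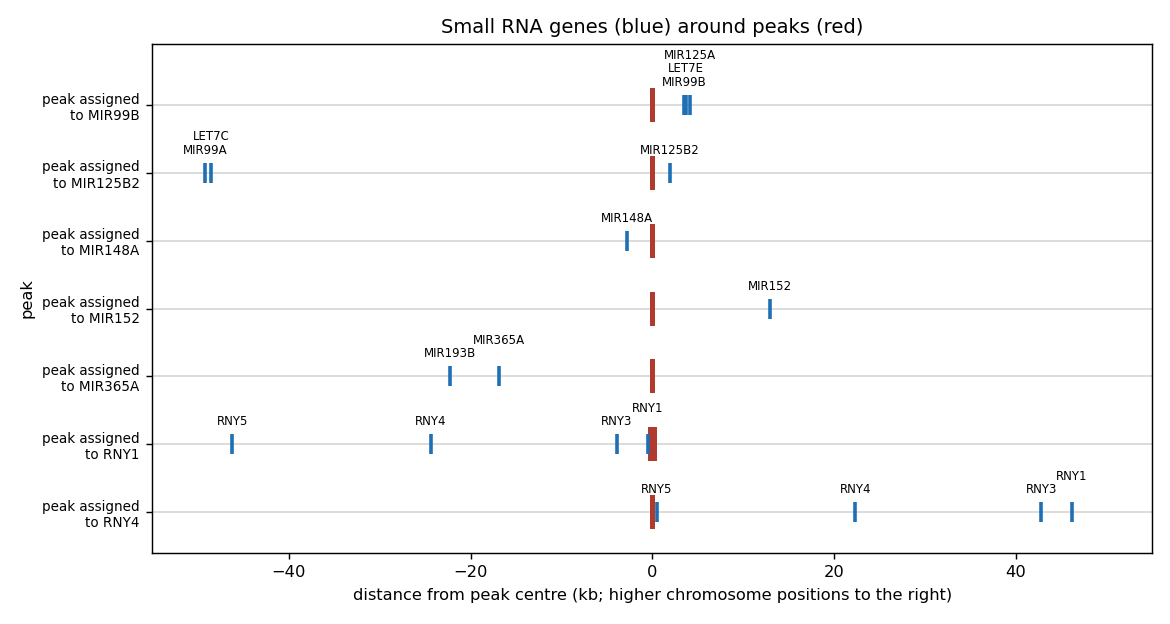
Position of small RNA genes (blue marks) around 7 peaks (red bars, each at 0 and drawn at least 0.5 kb wide), with the distance from the peak centre in kb on the x axis and 1 peak per row. MIR99B, MIR125B2 and MIR148A lie within 5 kb of their peaks, MIR152 and MIR365A lie farther away, and the peak assigned to RNY4 lies next to RNY5.

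The assigned symbols gave only part of the microRNAs near peaks. By RefSeq positions, 23 of 1913 microRNA genes (1.20%, 0.764 to 1.80%) lay within 1000 bp of a peak, against 13.7% of 20033 protein-coding genes and 6.46% of all RefSeq genes. This distance is taken to the whole gene, so a peak anywhere inside a gene counts. The median gene length is 80 bp for microRNAs and 24130 bp for protein-coding genes, so these shares are not like for like. By symbol, only 8 of the 23 had been assigned that peak. Another 9 stood beside a peak assigned to another named gene, and 8 beside a peak assigned to a gene without a symbol, and MIR4733 and MIR6791 count in both, with a peak of each kind. Whether a gene without a symbol is the microRNA itself was not checked, so the count of those assigned their peak may be too low. By assigned symbol, 34 of the 1913 (1.78%) had a peak, against 9.96% of protein-coding genes.

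A peak overlapped 4 microRNA genes: MIR4522, MIR1281, MIR4787 and MIR6791. The MIR6791 peak had a fold of 5.25 (3.18 to 8.24), that of MIR4787 a fold of 2.79 (1.76 to 4.24) and that of MIR1281 a fold of 2.64 (1.70 to 3.94). Among those near a peak assigned elsewhere, MIR8072 had the highest, a fold of 8.12 (5.75 to 11.2) from 36 fragments, 599 bp from the hairpin. MIR615, which lies in the HOXC cluster, had a peak of 4.39-fold (2.73 to 6.73) at 385 bp, and MIR6720 had one of 5.24-fold (3.49 to 7.59) at 466 bp. These were named after their values were seen.

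The 10 peaks of other small RNA genes held 2 genes each of the SNORA and RNY classes, 1 each of SNORD and RN7S and 4 of RNU. Within 1000 bp of the assigned start lay 3 (30%, 6.67 to 65.2%), against 55.7% of all peaks, and 4 (40.0%, 12.2 to 73.8%) were within 1000 bp of an end of a protein-coding gene, against 55%. Inside or overlapping a protein-coding gene were 3 (30%, 6.67 to 65.2%), against 68.8% of all peaks. With 10 peaks these shares have wide intervals, and those on protein-coding genes follow in part from the choice of members.

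The Y RNA locus on chromosome 7 held a pair of peaks. The peak at chr7:148987266-148988178 had 23 fragments against 2.46, a fold of 6.94 (4.51 to 10.3). It starts 18 bp upstream of RNY1 and covers the GHET1 window printed above. The peak at chr7:148940859-148941240 had 22 fragments against 2.92, a fold of 5.87 (3.77 to 8.76). It was assigned to RNY4, 22456 bp away, but RefSeq places RNY5 248 bp from it. RNY3, between RNY4 and RNY1, lies 3410 bp from the RNY1 peak. Of the 4 RefSeq Y RNA genes, 2 thus had a peak within 1000 bp.

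Both snoRNAs of the pseudouridine-guiding SNORA class lay away from their peaks. SNORA48B had the highest peak of the non-microRNA members, at chrX:3518102-3518485, with 18 fragments against 1.70 and a fold of 7.05 (4.33 to 10.9), but 14149 bp downstream of its start. The SNORA24B peak had a fold of 3.33 (2.25 to 4.76), lies at the start of PARP16, which encodes an enzyme of ADP-ribosylation, and is 1003 bp from the snoRNA. RNU5A-1 and RNU5B-1, which encode the U5 spliceosomal RNA, lie 9125 and 17751 bp from the same peak. The SNORD3C peak, with 22 fragments against 3.22 and a fold of 5.44 (3.50 to 8.12), overlaps the assigned gene span in the deposited table. In RefSeq it lies between SNORD3A, 1081 bp away, and SNORD3C, 249 bp away, which are copies of the U3 gene needed for ribosomal RNA cleavage.

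RN7SL2, a gene of the signal recognition particle RNA, had a peak of 4.67-fold (2.64 to 7.75) from 13 fragments, 544 bp from the RefSeq gene. The RNU4-2 peak, with 16 fragments against 4.15 and a fold of 3.30 (1.97 to 5.24), lies between RNU4-2, 381 bp away, and RNU4-1, 499 bp away, both genes of the U4 spliceosomal RNA. It also lies 95 bp from a start of SIRT4, so its gene cannot be told apart by position. RNU6-1, a U6 gene, was 44622 bp from its peak, which had a fold of 2.92 (1.86 to 4.40). RNU1-154P, a U1 copy whose symbol marks it as a pseudogene, had a peak of 3.88-fold (2.42 to 5.96) inside NBPF20, 6345 bp downstream of its start.

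The RNU2-1 peak belonged to a repeat array of U2 genes on chromosome 17. It held 102 fragments against 45.7, a fold of 2.21 (1.80 to 2.68), and lies 2050 bp downstream of the RNU2-1 start. Between chr17:43231927 and chr17:43296801 the list held 10 peaks, of which 9 were assigned to genes without a symbol and so lie outside the members. Their folds ran from 2.04 to 4.26, with backgrounds of 3.99 to 50.4 fragments. RefSeq lists 13 small nuclear RNA genes in and beside this stretch, 8 of them within 1000 bp of a peak.

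Background enters the fold as its denominator, and it varied widely among the members in repeated sequence. The SNORD3C and RN7SL2 peaks, at genes with copies, had backgrounds of 3.22 and 2.0 fragments and folds of 5.44 and 4.67. The MIR6724-4 and MIR6724-2 peaks held 390 and 447 fragments, the most of any members, but against 199 and 263 expected, for folds of 1.95 (1.76 to 2.16) and 1.70 (1.54 to 1.86). They lie in the ribosomal DNA region of chromosome 21, where RNA45SN1 is 12542 bp from the MIR6724-4 peak and RNA45SN2 is 14972 bp from the MIR6724-2 peak. MIR1302-3, in a duplicated region near LOC124907875, had 43 fragments against 16. A background over 10 fragments occurred at 3 microRNA peaks (8.57%) and 1 other (10.0%), against 1.52% of all peaks. At the opposite end, 8 microRNA peaks (22.9%, 10.4 to 40.1%) had the lowest background, 1.70 fragments, against 12.2% of all peaks. No source used here says how reads that match several copies were placed, and its part in these values was not tested.

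**Figure D4:**
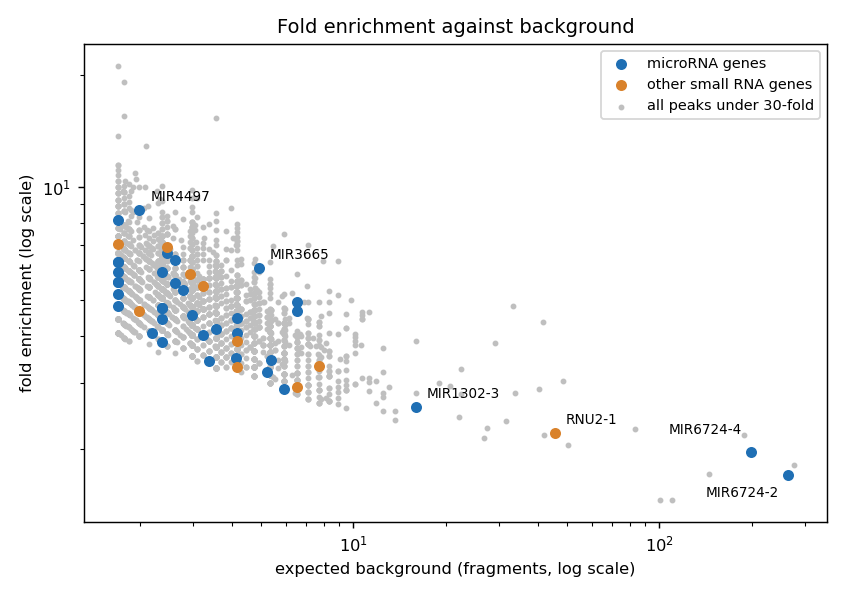
Fold enrichment (y axis, log scale) against the expected background in fragments (x axis, log scale) for microRNA peaks in blue, other small RNA peaks in orange and all peaks under 30-fold in grey. MIR6724-2, MIR6724-4 and RNU2-1 lie at the right with folds of 1.70, 1.95 and 2.21, while MIR4497 lies at the upper left with 8.68.

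Some small RNA genes outside the naming rule also had peaks. U1 variant genes, whose symbols start with RNVU1, were assigned 6 peaks, with folds of 3.73 to 6.14. The closest were RNVU1-4, with a fold of 4.47 (2.87 to 6.66) at 54 bp from the gene, and RNVU1-15, with 4.94 (2.99 to 7.75) at 215 bp. The peaks of RNVU1-27, RNVU1-29, RNVU1-31 and RNVU1-6 lie 5628, 6418, 9663 and 12369 bp from their genes, and each overlaps a transfer RNA gene. Of 25 RNVU1 genes in RefSeq, 5 lay within 1000 bp of a peak. VTRNA1-1 and VTRNA1-2, which encode vault RNAs, had peaks of 6.36-fold (4.05 to 9.58) and 4.15-fold (2.35 to 6.89), where the first overlaps the start of its gene and the second lies 133 bp from its gene. By class, 14 of 154 small nuclear RNA genes (9.09%, 5.06 to 14.8%) and 5 of 1199 snoRNA genes (0.417%, 0.136 to 0.97%) lay within 1000 bp of a peak, against 19.2% of 443 transfer RNA genes. Neighbouring genes can share a peak, so these intervals are too narrow for gene arrays. Among the members, 1 peak (2.22%) lay within 1000 bp of a transfer RNA gene, against 2.02% of all peaks with an assigned gene. It is the MIR3143 peak, with a fold of 4.75 (2.79 to 7.63), at 338 bp from TRH-GTG1-5 and 9574 bp from MIR3143.

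**Figure D5:**
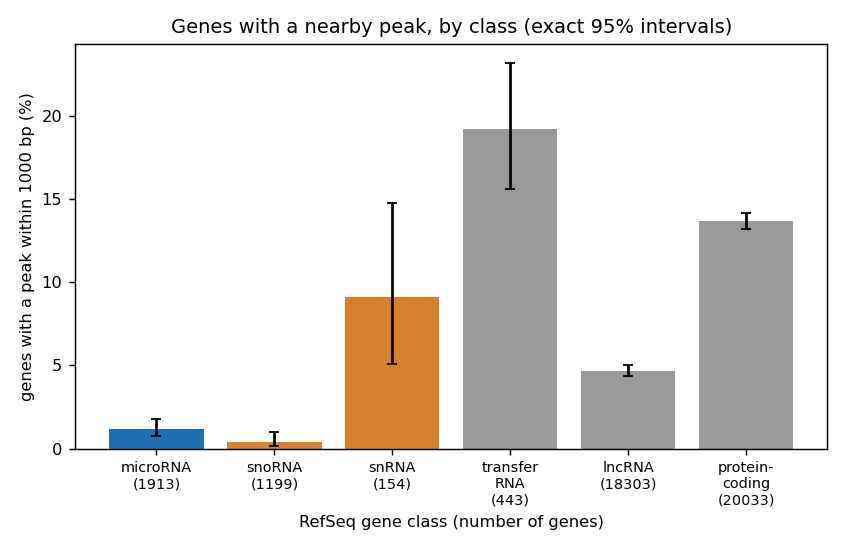
Share of RefSeq genes with a peak within 1000 bp (y axis, %) by gene class (x axis, number of genes in brackets), with exact 95% intervals. Peaks inside a gene count, so classes of long genes offer more room for a peak than classes of short genes. MicroRNA genes at 1.20% and snoRNA genes at 0.417% are lowest of the 6 classes drawn, small nuclear RNA genes are at 9.09%, and transfer RNA genes at 19.2% and protein-coding genes at 13.7% are higher.

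Host genes of small RNAs, which the rule leaves out, were assigned 7 peaks. The highest was at SNHG21, with a fold of 8.09 (5.25 to 12), upstream of its start. SNHG6 had a peak of 5.27-fold (3.42 to 7.79), SNHG26 of 4.97-fold (3.13 to 7.55), and SNHG3 of 4.46-fold (2.92 to 6.55). MIR202HG, MIR924HG and MIR4500HG had peaks of 4.59-fold (2.78 to 7.20), 3.88-fold (2.32 to 6.16) and 3.43-fold (2.42 to 4.74). The SNHG3 peak lies 997 bp from SNORA73A, which this transcript hosts.

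Genes of the proteins that make or bind small RNAs were counted as lists, beside the share of 9.96% of all protein-coding genes assigned a peak. Of 22 genes of microRNA processing, 3 had a peak. They were LIN28B, which blocks let-7 maturation, with a fold of 6.01 (3.64 to 9.42), the Argonaute gene AGO3 with 5.05 (3.24 to 7.53), and the RNA helicase gene DDX17 with 3.88 (2.42 to 5.96). RNA polymerase III and its factors had a peak in 4 of 23 genes, among them GTF3C3 (5.56-fold), POLR3A (5.01-fold) and POLR3E (4.15-fold). The snoRNP proteins had 1 of 15, GAR1 (5.36-fold), the transcription of small nuclear RNA genes 1 of 16, SNAPC1 (5.93-fold), and the proteins that bind RN7SL, RN7SK and Y RNAs 1 of 12, RO60 (3.18-fold). Of 9 microRNA genes linked to EVI1 in earlier work, including MIR1-2, MIR133A1 and the MIR9 and MIR124 genes, 0 were assigned a peak by symbol. Of 19 microRNA genes of blood cells 1 was, MIR125B2. Over all microRNA genes the share was 1.78%, as given above.

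Motifs were searched on both strands in the 10 RefSeq promoter windows that member peaks overlap, some by only part of their length. The motifs were GAAGATGAG and its inner part GATGAG, from the motif of the C-terminal zinc fingers of EVI1, ACAAGATAA and its inner part AGATAA, from the GATA-like motif of its N-terminal fingers, CGGAAG of ETS factors and TGACTCA of AP-1. GAAGATGAG, ACAAGATAA, AGATAA and TGACTCA were in 0 of the 10 windows, and were in 0.347%, 0.188%, 10.3% and 4.95% of all 35116 windows. GATGAG was in 1, the SLAIN1 window, and in 12% of all windows. CGGAAG was in 5, those of SLC39A1, ERCC1, PARP16 and LOC124907875, whose 2 windows overlap each other, and in 19.5% of all windows. Among the 1564 windows overlapped by any peak of the list, CGGAAG was in 33.2% and GATGAG in 10.6%. In the stretch that the peak itself covers, the matches were GATGAG in SLAIN1 and CGGAAG in ERCC1. A match is a description of these letters and does not mark a bound site.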

How the data were processed

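The data are the annotated peak list of the wild-type library. The submitters' processing notes name HOMER 4.10, deepTools (3.5.1.0.0 beside 3.3.2.0.0), MACS2 2.1.1.20160309.6, Bowtie2 2.4.2 and ChIPseeker 1.18.0 with the hg38 build, and give none of them a role. The authors' fold equals (fragments + 1)/(background + 1) at a peak, as found from the values. The authors' peak caller gave the deposited −log10 q-value and −log10 p-value. In each of the 3465 lines the authors' score equals 10 times the −log10 q without its decimals. The deposited widths and distances are in bp, and assigned genes are the authors'. The table has no header, so columns were identified from their values. Value columns that belong to no group: 0.

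Repeated lines were merged into 3462 peaks. Fragments and background were recovered from fold and −log10 p within 0.001 for 3459 peaks and all members. The recovery was tested on data simulated with the same formulas. That checks the arithmetic and cannot show that the deposited values follow these formulas. No source used here gives total reads, so depth is known only as fragments per peak. Shares have exact Clopper-Pearson 95% intervals. These and the Poisson intervals cover counting error only. Gene positions and sequences came from RefSeq (GRCh38.p14), without strand for genes, and 44 of 44 member symbols matched. No genome was used, so peak sequences are not printed.

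The members and gene lists were chosen with earlier results of these data known, so no test was run. The text names the 10 highest microRNA peaks, microRNAs with a peak within 1000 bp or several peaks, families and clusters, all other small RNA genes, and up to 4 members per list, of which 1 is not reported here. Others were named by position after their values were seen. Alternatives were a stricter q, −log10 q for fold, other distances, RefSeq positions, merged neighbours, a higher background, and omission of copies ending in P. Python 3.11.15, pandas 2.3.3, numpy 2.4.6, scipy 1.17.1 and matplotlib 3.10.9 were used.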

Additional observations from a re-analysis of the deposited data

How the results depend on the processing

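Of 28 alternative values, 16 stayed close to the reported ones (a count within 1.5 times, a median or share within its 95% interval). The shares of the 10 peaks of other small RNA genes have wide intervals, such as 6.67 to 65.2%. A share can therefore change much and still count as close. The 12 alternatives that moved include the medians on the −log10 q scale, whose unit differs, so that they can be set only against all peaks. At a q of at most 1e-05, 18 microRNA peaks and 5 other peaks were left of 35 and 10, and the microRNA median fold was 5.75, against 5.58 over all such peaks. Counts by RefSeq position take in any peak of the list and not only the members. By overlap, 4 peaks lay on a microRNA gene and 2 on another small RNA gene, and only the MIR4522 peak is a member. The microRNA median fold was 3.96 over the 6 peaks that overlap their assigned gene or lie within 1000 bp of its start. That limit was not applied to all peaks. On the −log10 q scale of the authors' deposited table, the median was 5.33 for microRNA peaks and 6.11 for the others, against 5.33 for all peaks. Within 10000 bp of the start lay 54.3% of microRNA peaks and 70.0% of the others, against 81.0% of all peaks, and 2.86% of microRNA peaks overlapped their gene. Within 5000 bp of an end of a protein-coding gene lay 34.3% of microRNA peaks, against 67.6% of all peaks. That share too follows in part from the choice of members. The cause was not tested, beyond the wider or narrower limits themselves. No paired analysis was possible because there is 1 library a group and 1 list. A lone library and 12 to 22 fragments at most members limit what can be told about a single peak.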
